A study of Mus musculus with 12 samples.

Results

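The peaks described here lay at the 5′ ends of protein-coding genes in antibody-based maps of 5-methylcytosine (m5C) in RNA. A peak was a member when it overlapped exactly 1 protein-coding gene span of at least 2000 bases on the gene's strand and had its midpoint in the first 1000 bases of that span. There were 6401 such peaks among the 72319 of the series, in 2060 host genes. The maps came from the hippocampus of female wild-type (WT) C57BL/6 mice, without any other manipulation named in the labels. The young group was 3 months old and the aged group 18 months old. Each age had 3 peak lists, 1 for each sample, and each sample had an immunoprecipitated (IP) library and an input library. Nothing in the labels ties the 3 samples of 1 age to 3 different animals, so each p-value reflects the spread among these libraries, part of which may be technical. The study asked how m5C in hippocampal mRNA differs between young and aged mice.

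m5C is placed on RNA by methyltransferases of the NSUN family and by DNMT2 (gene Trdmt1), and is bound by proteins such as the export adaptor ALYREF and the cold-shock protein YBX1. In mRNA the mark has been mapped near translation start codons among other places. The 5′ end of a transcript holds the cap, the leader through which ribosomes scan, and often the start codon, so a peak there covers the part of the message that is read first. An antibody peak marks an enriched stretch of RNA fragments and does not resolve the modified base.

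In 26.6% ± 0.875 (SD, n = 3) of the young and 25.6% ± 0.986 of the aged start peaks, the 5′ edge of the peak was the first base of the gene span itself. The sequences below show annotated transcript starts at which a peak edge fell, which in Fmr1 and Rab6b lie inside the span and in the others are its first base. Each has the 50 bases before an annotated RefSeq transcript start in lower case and the first 30 bases of the transcript in capitals, 5′ to 3′ on the gene's strand, on the mouse assembly GRCm38.p6 (mm10). In the first 5 the peak began at the first capital base in all 6 lists, and in Prkaca, Rab6b and Ube2h in the 3 aged lists, which alone had a start peak there. Pcdh10 is shown because its peaks began at this base at both ages and differed at the other end.
Ywhah (chr5:33018766-33018845, plus strand): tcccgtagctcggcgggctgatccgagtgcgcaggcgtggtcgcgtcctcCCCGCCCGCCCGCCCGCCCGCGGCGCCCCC
Slc17a7 (chr7:45163871-45163950, plus strand): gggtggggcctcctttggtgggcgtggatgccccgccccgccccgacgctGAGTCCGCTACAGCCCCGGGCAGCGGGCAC
Rab5a (chr17:53479184-53479263, plus strand): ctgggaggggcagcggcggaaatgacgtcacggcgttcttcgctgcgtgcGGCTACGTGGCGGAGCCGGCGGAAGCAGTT
Gsk3a (chr7:25237822-25237901, minus strand): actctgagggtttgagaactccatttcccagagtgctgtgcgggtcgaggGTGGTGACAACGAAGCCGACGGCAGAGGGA
Fmr1 (chrX:68678491-68678570, plus strand): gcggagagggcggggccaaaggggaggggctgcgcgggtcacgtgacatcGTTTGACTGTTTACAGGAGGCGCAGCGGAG
Prkaca (chr8:83972928-83973007, plus strand): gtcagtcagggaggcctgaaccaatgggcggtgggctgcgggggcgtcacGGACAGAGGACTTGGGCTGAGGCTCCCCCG
Rab6b (chr9:103112024-103112103, plus strand): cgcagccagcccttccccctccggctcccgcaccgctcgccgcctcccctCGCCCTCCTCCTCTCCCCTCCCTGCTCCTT
Ube2h (chr6:30304510-30304589, minus strand): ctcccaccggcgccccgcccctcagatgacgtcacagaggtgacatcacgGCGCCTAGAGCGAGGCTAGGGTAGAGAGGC
Pcdh10 (chr3:45378348-45378427, plus strand): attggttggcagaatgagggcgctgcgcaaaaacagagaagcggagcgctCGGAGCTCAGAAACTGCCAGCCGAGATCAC
The capital stretches differed widely in cytosine, from 5 in Fmr1 to 22 in Ywhah, against a median of 8 over the 32851 transcript starts of the RefSeq table. Base composition over all host genes was not compared, because 1646 of the 2060 (79.9%) had an entry in the table, below the 80% set as the minimum.

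Every aged list held more start peaks than every young list. The young lists held 786, 724 and 871 start peaks and the aged lists 1373, 1389 and 1258. The means were 793.7 ± 73.8 (SD, n = 3) and 1340 ± 71.5, so that the aged lists had 1.69 times as many (p = 0.1 by a two-sided exact permutation test, which cannot go lower with 3 lists against 3). All peaks together were 1.51 times and peaks in the last 1000 bases of a gene 1.44 times as many in the aged lists. The number of reads behind a list is unknown, and its part in these counts was not tested. A bulk sample also does not tell fewer cells of a type from less RNA per cell.

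The share of start peaks was also higher in the aged lists, by a small amount. Of the peaks that lay in exactly 1 gene, start peaks were 8.28%, 8.88% and 8.73% in the young lists and 9.32%, 10.2% and 9.09% in the aged lists. All 3 aged values lay above all 3 young ones, at 9.55% ± 0.605 against 8.63% ± 0.312 (exact permutation p = 0.1). The share at gene ends went the other way, at 8.35% ± 0.31 in the aged and 8.86% ± 0.231 in the young lists, again with no overlap (exact permutation p = 0.1). Each list was then shortened by score to 8549 peaks, the length of the shortest list. The mean number of start peaks was 724 in young and 843 in aged lists (exact permutation p = 0.1). The lowest score kept was 105.3 to 120.5 in aged and 50 to 64.6 in young lists, so this cut does not isolate list length. With only scores of at least 100, the young mean share became 9.48% and the aged 10.2%, 0.733 points apart (exact permutation p = 0.2). With only scores at or above each list's own median, the means became 9.75% and 10.2%, 0.49 points apart (exact permutation p = 0.5).

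**Figure D1:**
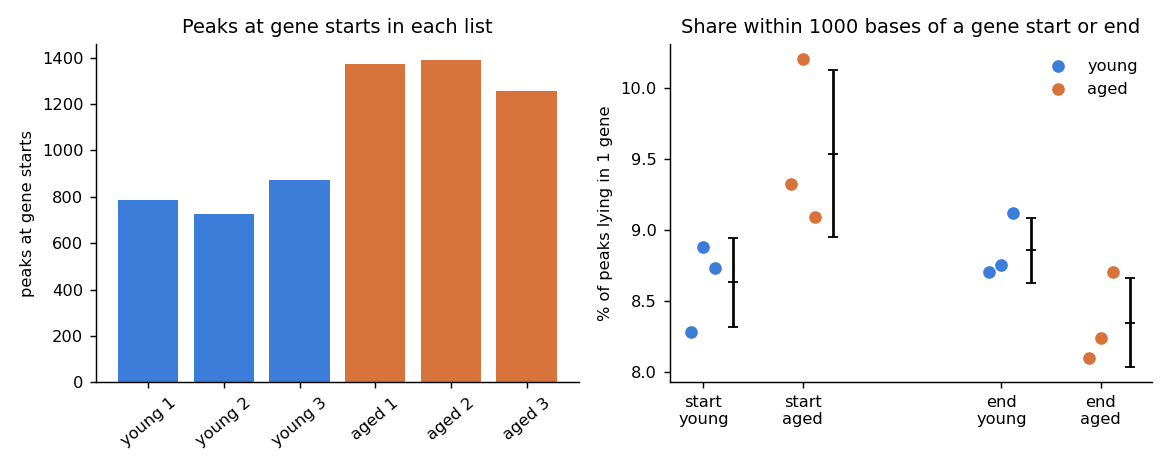
Left, the number of peaks at gene starts in each of the 6 peak lists, with the 3 aged bars (1258 to 1389) all above the 3 young ones (724 to 871). Right, the share of start peaks and of end peaks among peaks lying in 1 gene (percent, axis not from 0), 1 point per list with the mean and SD beside the points: start shares were higher and end shares lower in the aged lists.

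Within a list, starts and ends of genes took similar shares of the peaks. The start share minus the end share averaged 0.484 percentage points over the 6 lists (SD 0.951, positive in 4 of 6, exact sign-flip permutation p = 0.344). Its sign depended on how the start was drawn. It was 3.05 points when only the first and last 500 bases counted, −3.25 points with 2000 bases in spans of at least 4000, and −1.19 points when a peak had to cover the first or the last base (exact sign-flip permutation p = 0.0312 for each, the smallest that 6 lists allow).

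Start peaks crowded into the first 300 bases. Midpoints had a median of 204.2 ± 8.78 bases from the 5′ end in the young and 206 ± 1.73 in the aged lists (SD, n = 3, exact permutation p = 0.7). A peak covered the first base of the span in 42.2% ± 1.45 of young and 41.1% ± 0.609 of aged start peaks (exact permutation p = 0.4). The ages differed slightly in the distribution inside this stretch. Midpoints in the first 100 bases were 23.1% ± 0.518 of the young and 20.1% ± 0.303 of the aged start peaks, and those from 200 to 300 bases 15.4% ± 1.03 and 17.4% ± 0.201 (exact permutation p = 0.1 for each, without overlap). In numbers of peaks, the aged lists had 1.47 times as many as the young in the first 100 bases, 1.83 times from 100 to 200, 1.91 times from 200 to 300, 1.7 times from 300 to 500 and 1.59 times from 500 to 1000. At the border of the window, 71 peaks over all lists had a midpoint within 50 bases inside it and 61 within 50 bases outside it.

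**Figure D2:**
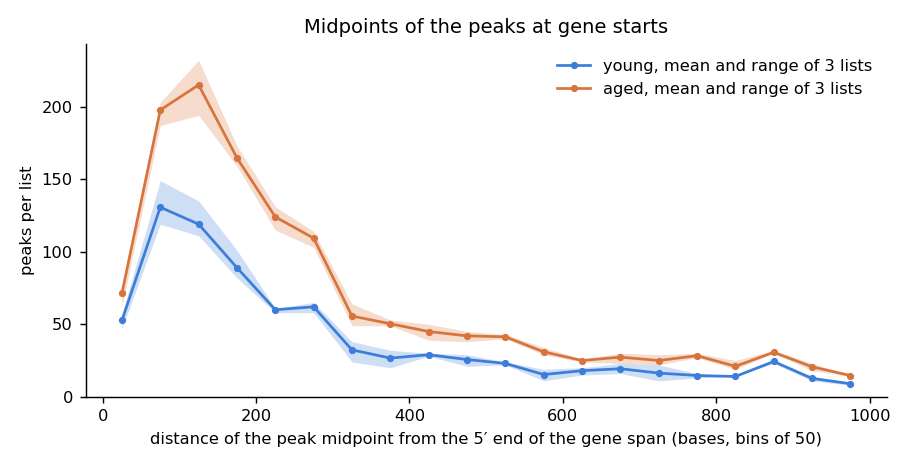
Start peaks per list by the distance of the midpoint from the 5′ end of the gene span, in bins of 50 bases; lines are the mean of 3 lists and bands their range. Both ages rise to their highest counts between 50 and 150 bases and fall off after 300 bases. The aged mean is higher in every bin, and the ranges meet in some bins beyond 600 bases.

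Start peaks were wider than the other peaks of the same list. Their median width lay between 270.5 and 279.5 bases per list, against 204 to 216 for the rest. The difference was 67.1 ± 6.16 bases (SD over 6 lists, 6 of 6 positive, exact sign-flip permutation p = 0.0312). Peaks at gene ends were wider still, and the start median minus the end median averaged −491.2 bases. The deposited score, the authors' own value per peak with a ceiling near 3100, was also higher at gene starts, with a ratio of medians of 1.27, 1.26 and 1.2 in the young and 1.08, 1.09 and 1.22 in the aged lists (mean ratio 1.19, exact sign-flip permutation p = 0.0312). The excess was not seen without the weak peaks. Among peaks scoring at least 100 the ratio was 1.03 (exact sign-flip permutation p = 0.438), and with lists of equal length it was 1.08 (exact sign-flip permutation p = 0.25).

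Over the 6 lists, start peaks of the same gene strand that met or overlapped formed 2106 start regions. Of these, 401 (19%) had a start peak in all 6 lists, where 17.6% of all regions in the genes did. Another 651 (30.9%) appeared in 1 list only. Of the 401 common regions, 399 held exactly 1 peak per list, and in 265 of these (66.4%) both ends of the peak were identical to the base in all 6 lists. In the examples printed above, the recurring 5′ edge was an annotated transcript start, but they were chosen for this. They do not show how often it holds over the common regions, and other genes in all 6 lists, such as Brd7 and Napb, had no edge at a listed start. Between 88.3% and 90.6% of the start peaks of a young list lay in a region that some aged list shared, and between 60.9% and 66.1% of those of an aged list in one that some young list shared.

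Regions restricted to 1 age were mostly aged. In 160 regions every aged list and no young list had a start peak (7.6%), where 5.19% of all regions were aged-only. The opposite was found in 11 regions (0.522%), where 0.588% of all regions were young-only. In 159 of the 160 aged-only regions no young list had any peak touching the region, and in 9 of the 11 young-only regions no aged list did. The balance depended on list length. With lists of equal length, where aged peaks had to score 105.3 to 120.5 and young peaks 50 to 64.6 to be kept, 50 start regions (3.46%) were aged-only and 25 (1.73%) young-only. Elsewhere in the genes the same limit gave 1.95% and 1.71%. Whether start regions differ from other regions in this was not tested.

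**Figure D3:**
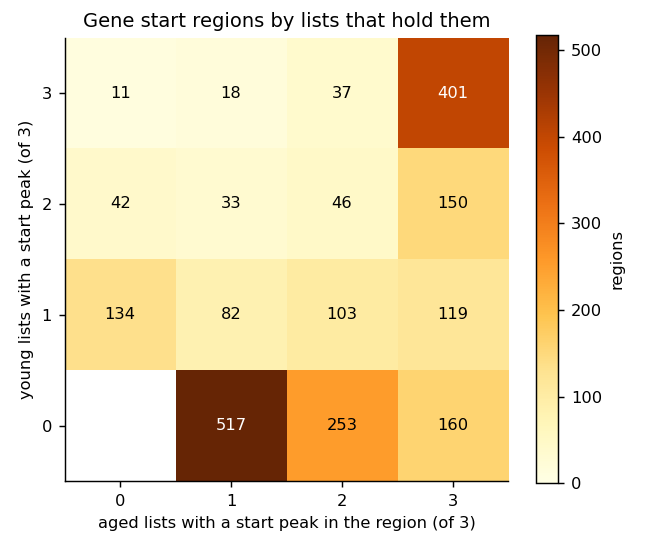
The 2106 start regions by the number of young lists (vertical) and of aged lists (horizontal) that hold a start peak in them, with the count in each cell. The 2 fullest cells are regions of 1 aged list alone (517) and of all 6 lists (401), and the cell of the 3 aged lists without a young one (160) exceeds its mirror image (11).

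Counted by gene, 419 of the 2060 hosts (20.3%) had a start peak in all 6 lists, where 32.2% of genes with a peak anywhere had a peak in all 6. Aged-only start genes numbered 159 (7.72%, with 4.22% of all genes with a peak being aged-only), and young-only start genes 10 (0.485%, with 0.737% of all genes). Many aged-only start genes carried m5C peaks further along at both ages. Of the 159, 109 had a peak elsewhere in the gene in at least 1 young list and 64 in all 3, and 26 had no peak elsewhere in any list. With lists of equal length, 48 genes were aged-only, of which 37 were among the 159, and 27 were young-only, 8 of them among the 10. Shortening only removes peaks, so a gene without a start peak at 1 age stays without one. Whether a restricted gene keeps its class then rests on its scores at the other age alone, and is no separate support. Hosts had a median span of 25.7 kb, between the 34.9 kb of genes with peaks elsewhere only and the 21.3 kb of all spans of at least 2000 bases.

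Among hosts with a start peak in all 6 lists, 25 had a score at or above the ceiling of 3100 in each list, so the 12 that the naming rule took from them hold no rank over the others. Gria1 encodes an AMPA-type glutamate receptor subunit (start region chr11:57011618-57012115), Cadps a priming factor of dense-core vesicle release, Calm2 the calcium sensor calmodulin, Gap43 a growth-cone phosphoprotein, Dync1i2 an intermediate chain of the motor dynein and Ywhah a 14-3-3 adaptor. Nuclear and translation genes were Chd3, a remodeler of the NuRD complex, Brd7, a bromodomain protein, Arglu1, a nuclear protein of splicing and transcription, and Eif5b, the factor that joins the ribosomal subunits. Fam32a and the uncharacterised locus LOC100504180 completed the 12. Ywhae, another 14-3-3 adaptor, was also at the ceiling in each list.

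The gene lists below were counted by how many of their members had a start peak in each peak list, and over all hosts these counts were 789 ± 72.8 in young and 1334 ± 70.9 in aged lists. Over all 2060 hosts, 1277 had a start peak in more aged than young lists, 253 in more young lists and 530 in equally many, and the median host had 1 more aged list. In these lists the aged counts were compared by whether they overlapped the young ones, with no test. Over all hosts, 159 of 2060 (7.72%) were aged-only and 10 (0.485%) young-only. The few restricted genes named per list are to be read beside these shares and are not results about a list. Of the 35 aged-only genes under the naming rule (33 are plotted), 15 stayed aged-only with lists of equal length and 20 did not. Arf4, Ephb1, Smarca1 and Srrm1 then had no start peak in any list. Amph, Cacnb1, Ldhb, Morf4l1 and Stk11 kept 1 aged list. Clu, Eif4a3, Iqsec2, Ndufb10, Ndufs3, Rab2a, Rptor, Stx1a and Vps26a kept 2. With lists of equal length, every aged list stayed above every young one in the presynaptic, trafficking, Alzheimer disease, m6A and astrocyte lists alone. Over all hosts the counts then averaged 720 in young and 839.3 in aged lists (exact permutation p = 0.1), so a higher aged count is not particular to these lists. The m6A list then had 1 gene in each young and 2 in each aged list, and Ythdf3 alone made the difference.

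The presynaptic list was among those with the most start peaks. Of its 35 genes with any peak, 23 (65.7%) had a start peak somewhere, where 22.7% of all genes with a peak did. Young lists held 14, 10 and 14 of them and aged lists 21, 22 and 17, with no overlap, and with lists of equal length 12, 10 and 13 against 16, 20 and 15. Present in all 6 lists were Napb, a SNAP cofactor of vesicle fusion, and Slc17a7, the vesicular glutamate transporter of excitatory neurons. Napb scored 1139, 695.2 and 1049 in the young lists and 2149, 3192 and 2408 in the aged. Over the regions common to all 6 lists, median scores were 318.7, 231.4 and 297.5 in young and 621.2, 615.4 and 577.1 in aged lists. Over all start peaks the medians overlapped, at 170.8, 145 and 143.1 in young and 154.2, 156.2 and 170.4 in aged. Scores of single genes are given here without a comparison between ages. Slc17a7 scored 829.9, 661.5 and 972.7 in the young and 881.1, 2040 and 1121 in the aged lists. None of the 23 was found in more young than aged lists. Most of the other gene lists by function also lay above the 22.7% of all genes, up to 66.7% for the 14-3-3 adaptors.

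The presynaptic list had 3 aged-only genes among its 23 hosts, where 7.72% of all hosts were aged-only. Syn1, encoding the vesicle phosphoprotein synapsin I (chrX:20920413-20921004), scored 237.2, 1079 and 261.2 in the 3 aged lists and had no start peak in any young list. Stx1a, the plasma membrane SNARE syntaxin 1A, scored 142.8, 109.5 and 62.9. Amph, which encodes the endocytic protein amphiphysin, scored 98, 142.6 and 55.3. Syn1 was aged-only with lists of equal length too, whereas Stx1a then had a start peak in 2 aged lists and Amph in 1.

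Membrane trafficking showed a similar count. Of 38 Rab and trafficking genes with any peak, 20 had a start peak (52.6%, against 22.7% of all genes with a peak). Young lists held 9, 6 and 8 of the 20 and aged lists 14, 17 and 14. With equal length the counts were 6, 6 and 7 against 9, 12 and 11. Rab5a, the early endosome GTPase, was present in all 6 lists at 984.9, 736.4 and 1052 in young and 1224, 1493 and 1837 in aged. Aged-only were Rab6b, a neuronal Golgi GTPase (chr9:103112074-103112226) at 436.5, 690.7 and 520.2, Rab2a, Arf4 and the retromer subunit Vps26a. Of these 4, Rab6b was aged-only with lists of equal length. The span of Rab6b also carried peaks elsewhere in all 6 lists.

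Receptors and channels had start peaks in smaller shares of their genes than the presynaptic list, though the aged counts again lay above the young. In the glutamate and GABA list 14 of 34 genes with a peak (41.2%) had one, where 22.7% of all genes with a peak did. Young lists held 6, 6 and 5 of the 14 and aged lists 8, 9 and 8. Grin3a, an NMDA receptor subunit, was young-only at 70.2, 115.1 and 70.2. Its strand rests on these young peaks, as the gene had none elsewhere at either age. With lists of equal length the glutamate and GABA list no longer separated the ages, at 5.67 ± 0.577 and 5.33 ± 2.08. Of the voltage-gated channels, 7 of 33 genes with a peak (21.2%) had a start peak. Hcn2, a pacemaker channel, had one in all 6 lists, and Cacnb1, a calcium channel β subunit, in the aged lists alone at 73.9, 206.9 and 66.6, in a place where Rpl19 lies on the other strand. In the postsynaptic list, Iqsec2, an activator of the GTPase ARF6, was aged-only at 144.8, 145 and 63.4.

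Signalling genes included start peaks near the ceiling of the score. Of 39 G protein, calcium and cAMP genes with a peak, 17 had a start peak (43.6%, against 22.7% of all genes with a peak). Of the 17, 10 had one in all 6 lists. Gnb1, a G protein β subunit, scored 3090, 1424 and 3219 in young and 3100, 3100 and 3227 in aged lists. Atp2a2, the calcium pump of the endoplasmic reticulum, scored 3100, 2346 and 2060 in young lists and 3100 in each aged list. Both were present everywhere, and the ceiling hides any difference among the highest values. Prkaca, encoding a catalytic subunit of protein kinase A, had no start peak in a young list and scored 448.4, 519.5 and 327.8 in the aged, with the peak beginning at the first annotated base. In the insulin and mTOR list Gsk3a and Pik3r1 were in all 6 lists, and Rptor, the mTORC1 scaffold, and Stk11, the kinase LKB1, were aged-only with scores of 68.5 to 221.6. A young list had a peak elsewhere touching the Stk11 region, the only such case among the 160.

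Of the genes linked to Alzheimer disease, 9 of 24 with a peak had a start peak (37.5%, against 22.7% of all genes with a peak). Young lists held 2, 3 and 3 of them and aged lists 7, 7 and 5, and with lists of equal length 2, 3 and 3 against 4, 6 and 5. Lrp1, a lipoprotein receptor, scored 2648, 1646 and 1692 in young and 3100, 3100 and 3215 in aged lists. Clu, which encodes clusterin, was aged-only at 88.8, 170 and 217.9, and Picalm, a clathrin assembly protein, at 167.3, 141.3 and 109.1. Picalm was aged-only with equal length as well, and Clu then kept 2 aged lists.

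RNA-binding and chromatin genes were counted more often in the aged lists as deposited, and less clearly or not at equal length. The splicing list had 22 hosts among 53 genes with a peak (41.5%, against 22.7% of all genes with a peak). There were 7 ± 1 per young and 13 ± 1 per aged list, and 6 ± 1.73 against 5.67 ± 1.15 with lists of equal length. Hnrnpd scored 3100, 2632 and 2179 in young and 3100 in each aged list, in a place where 4930524J08Rik lies on the other strand. Srrm1 was the aged-only member, at 69.6, 69.3 and 83.5. Chromatin genes had 8.67 ± 1.53 and 14.7 ± 1.15 hosts per list, and 8.33 ± 1.15 and 9.33 ± 0.577 with equal length. Chd3 and Chd5, NuRD remodelers, Bptf and the H3K36 methyltransferase Setd2 had a start peak in all 6 lists. Smarca1 and Morf4l1 were aged-only, but neither stayed so with equal length.

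Genes of protein synthesis and turnover had start peaks at both ages. Ribosomal protein genes had 19 hosts among 35 genes with a peak (54.3%, against 22.7% of all genes with a peak). There were 8, 9 and 9 per young and 9, 11 and 14 per aged list, which overlap. Rpsa, Rpl38, Rpl26 and Rps14 were in all 6 lists. Ribosomal protein genes have many processed copies in the genome, so the placing of their reads is uncertain. Of the translation factors Eif5b, Eif3g, Eif2s2 and Eif4e2 were in all 6 lists, and Eif4a3, the RNA helicase of the exon junction complex, was aged-only at 117.4, 155.9 and 183. Ubiquitin and proteasome genes had 7, 5 and 7 hosts in young and 12 in each aged list, and 5, 5 and 7 against 7, 8 and 7 with equal length, which overlap. Ube2h, a ubiquitin-conjugating enzyme, was aged-only at 302.8, 156.4 and 204.3 and remained so with equal length.

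Among genes of the stress response and of energy metabolism were 2 of the young-only genes. Among heat shock proteins and chaperones the counts were 8, 7 and 8 in young and 10, 7 and 8 in aged lists. Xbp1, the transcription factor of the unfolded protein response, had a start region at chr11:5520653-5521200 that scored 795.5, 425.7 and 528.2 in the young lists and held no peak in an aged list. In its place the 3 aged lists each had a peak at chr11:5521663-5522019, scoring 1226, 1413 and 1288, with its midpoint 1200 bases from the start. Young 2 also had a peak there, at 323. Young 1 and young 3 thus had a peak at the first place alone, the aged lists at the second alone, and young 2 at both.

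Oxidative phosphorylation genes had 7, 8 and 7 hosts in young and 8, 12 and 13 in aged lists. Ndufb9 and Ndufa8 of complex I were in all 6 lists, and Ndufb10 and Ndufs3 of the same complex were aged-only, with scores from 51.2 to 249.6. The Ndufs3 peaks lie where Kbtbd4 runs on the other strand. Ndufa5, also of complex I, was young-only by the rule, at 233.4, 191.6 and 165.9. Its aged lists had peaks with the same 3′ edge at scores of 494.8, 406.3 and 268.7, but these were 338, 488 and 488 bases wide against 202, 202 and 141 in young, and reached so far upstream that their midpoints lay before the span. Over the series, 146 peaks (0.209% of those in 1 gene) had their midpoint before the span.

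Pcdh10, a protocadherin, was the young-only gene with the highest scores, at 1217, 838.7 and 2115. It too was marked at both ages. The peaks of all 6 lists began at the first base of the gene, position 45378398 of chromosome 3. They were 1476, 1241 and 1323 bases wide in the young lists and 3676, 3763 and 3763 in the aged, which put the aged midpoints at 1838 to 1882 bases. Pcdh10 and Ndufa5 are the 2 young-only regions that aged peaks touched.

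The remaining young-only genes had no aged peak at the start. Pafah1b1, which encodes LIS1, a regulator of dynein, scored 84.5, 73.4 and 109.8. Nup62cl scored 180, 143.2 and 109.5. The other 2, 4930449I24Rik and 5031410I06Rik, fall outside the naming rule. Il17a and Cyp2a4, an interleukin gene and a cytochrome P450 gene, scored 56.7 to 76.6, close to the lowest values in the lists. Pafah1b1, Nup62cl, Grin3a, Xbp1, Pcdh10 and Ndufa5 stayed young-only with lists of equal length, as their young scores lay above the cut.

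Mtdh, which encodes the RNA-binding membrane protein metadherin, had the highest scores of the aged-only genes. Its region at chr15:34082736-34083413 scored 2366, 2308 and 2508 in the aged lists, and no young list had a peak touching the region, while all 6 had peaks further along the gene. The strand of Mtdh was taken from its peaks, and the region also overlaps the predicted gene Gm41291, whose strand is not given. The other high aged-only genes were Trappc4, a subunit of the TRAPP tethering complex (372.2, 375.3 and 312.7), Rnf10, a RING finger protein (126.8, 554.6 and 342.4), Setd7, a lysine methyltransferase (292.9, 448.8 and 235.7), and Xpot, the tRNA exporter (351, 215.4 and 374.4). Cenpk, Ankib1, Adra1d and Hectd4 ranged from 185.3 to 391.9, and the Cenpk peaks also touch Ppwd1 on the other strand. With Rab6b, Syn1 and Prkaca these make the 12 highest. The strands of Trappc4 and Adra1d rest on their aged start peaks alone, as neither gene had a peak elsewhere in any list. All 12 stayed aged-only with lists of equal length, which their scores fixed, as all lay above the cut of 105.3 to 120.5.

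**Figure D4:**
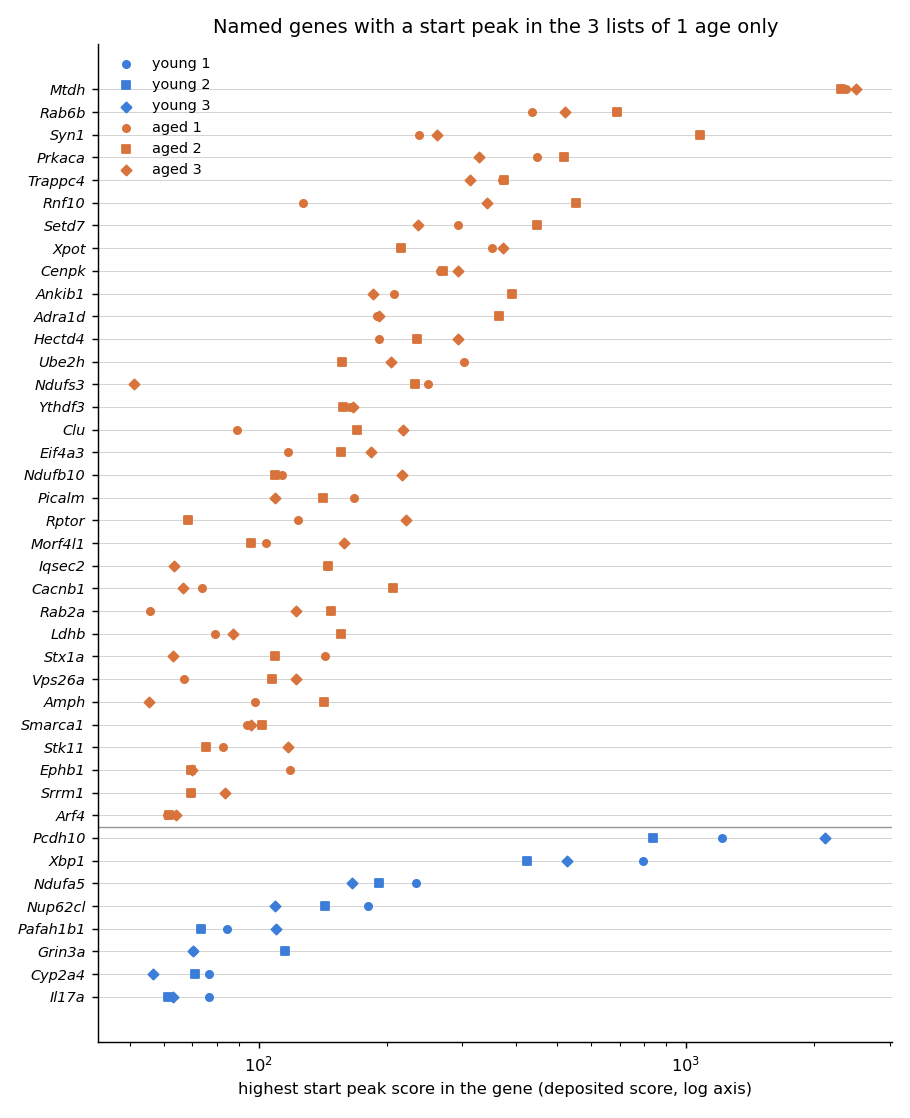
Highest start peak score per list (log axis) of the named genes with a start peak in the 3 aged lists alone (33 genes above the line) or the 3 young lists alone (8 genes below it), 1 symbol per list. Mtdh stands apart among the aged-only genes at 2308 to 2508, and Pcdh10 among the young-only genes at 838.7 to 2115.

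Of 20 writers, erasers and readers of m5C, 10 had a peak and 1 had a start peak. This was Fmr1, which encodes the RNA-binding protein FMRP, at 206.4, 86.3 and 158.6 in the young and 808.7, 473 and 609.4 in the aged lists. Of 18 m6A genes with a peak, 6 (33.3%) had a start peak, where 22.7% of all genes with a peak did. The nuclear m6A reader Ythdc1 was in all 6 lists, at 573.1 to 809.8 in young and 1320 to 1895 in aged. Ythdf3, a cytoplasmic m6A reader, was aged-only at 163.9, 157.8 and 166.6 and remained so with lists of equal length. Its strand was taken from its peaks, and no young list had a peak elsewhere in the gene. Mettl14, Zc3h13, Fto and Alkbh5 had a start peak in 1 aged list each, at scores of 50.8 to 52.9.

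**Figure D5:**
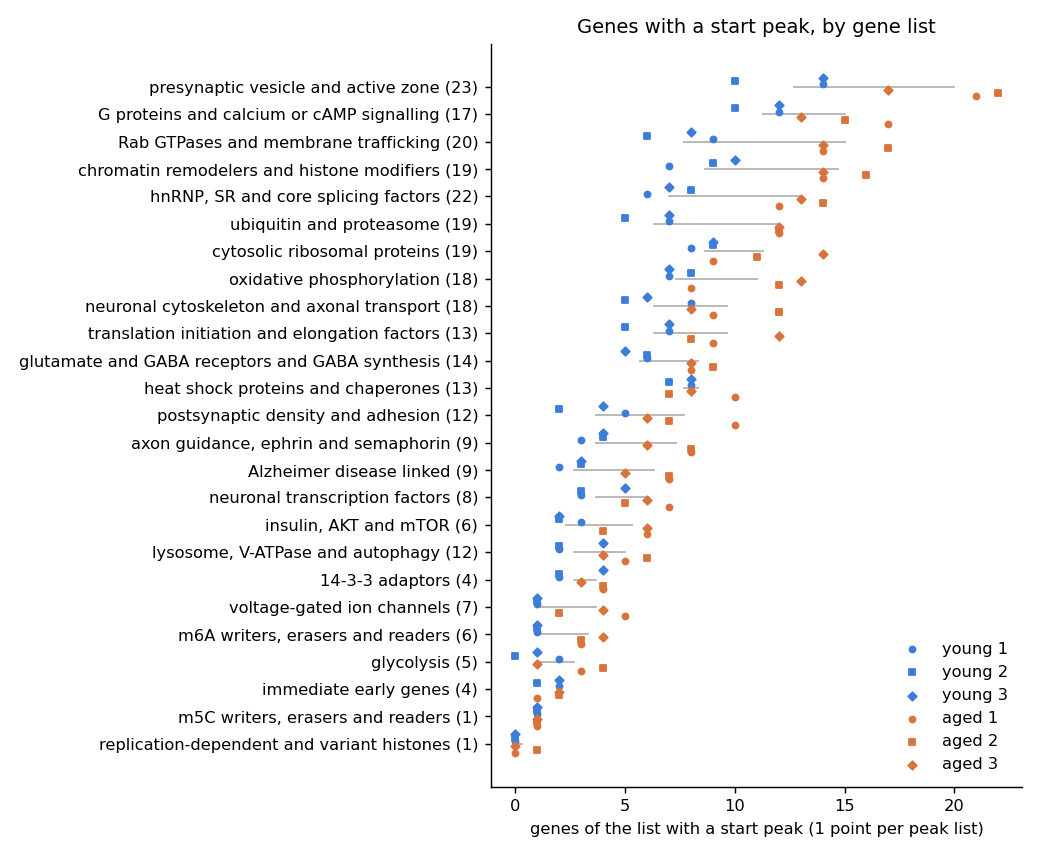
Number of genes of each gene list with a start peak, 1 symbol per peak list (young blue, aged orange) with a line between the means; in parentheses, the genes with a start peak in any list. The presynaptic list reaches 17 to 22 genes in the aged against 10 to 14 in the young lists, while heat shock and immediate early genes overlap.

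Cytoskeleton and axonal transport genes had 8, 5 and 6 hosts in young and 9, 12 and 8 in aged lists, which overlap, and Ank3, the ankyrin G scaffold of the axon initial segment, scored 2439 or more in each list. Axon guidance genes had 3, 4 and 4 against 8, 8 and 6, and 3, 4 and 3 against 5, 4 and 5 with equal length, which overlap. The ephrin receptor Ephb1 was aged-only at 118.7, 69.6 and 69.8. Of the glycolysis genes, Ldhb, a lactate dehydrogenase subunit, was aged-only at 79, 156.2 and 87.2. Lysosome and autophagy genes had 2, 2 and 4 hosts against 5, 6 and 4, and immediate early genes 2, 1 and 2 against 1, 2 and 2. Neuronal transcription factors had 3, 3 and 5 hosts against 7, 5 and 6.

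Cell type markers with a start peak were mostly those of neurons and astrocytes. Of the excitatory neuron markers, 7 of 9 with a peak had a start peak (77.8%, against 22.7% of all genes with a peak). Among the 7, Slc17a7 and Prox1, a marker of dentate granule cells, had one in all 6 lists. The share was 50% of 8 inhibitory neuron, 46.2% of 13 astrocyte and 30% of 10 oligodendrocyte markers with a peak. Astrocyte markers had 3, 2 and 3 hosts in young and 4, 6 and 4 in aged lists, and 2, 2 and 3 against 4 in each with lists of equal length. Gfap, the astrocyte filament protein, had a start peak in 2 young and 3 aged lists. Inhibitory neuron markers had 1, 0 and 2 hosts in young and 2, 2 and 4 in aged lists, and 0, 0 and 2 against 0, 0 and 1 with equal length. Of the oligodendrocyte markers Ermn was in all 6 lists. No marker of microglia (5 with a peak), endothelium (6), mural cells (8), oligodendrocyte precursors (3) or choroid plexus (1) had a start peak. With so few genes per list and 22.7% over all genes, each empty list says little. The part of cell type abundance in the counts above was not tested.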

How the data were processed

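The authors deposited 6 peak lists, 1 per sample, as positions with a strand and a score. The score is the authors' deposited value per peak, with peak names that carry the word MACS; the sources used here do not define it, so it serves only for description, ranking and filtering inside 1 list. Per the submitters' processing notes, cutadapt 1.9.3, HISAT2 2.0.4 and mm10 were used. Per the labels' protocols, RNA was fragmented, captured with an m5C antibody and made into directional libraries. Read counts were not used here, so depth and precision are unknown.

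Peaks were given to the 19300 protein-coding spans of at least 2000 bases in RefSeq's GRCm38.p6 table. Gene strand came from RefSeq transcript starts or, for 414 of the 2060 hosts, from the strand of most peaks lying in that gene alone; the 2 sources gave the same strand in 99.6% of 7266 genes. Exons were not used. Of the start peaks, 290 also touched another span, on the other strand, under 2000 bases or of unknown strand. Positions count from 1.

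Values per list are mean ± SD with exact two-sided permutation tests (Python 3.11.15, numpy 2.4.6, pandas 2.3.3). Lists of 3 against 3 cannot give p below 0.1, nor 6 sign-flipped lists below 0.0312. Predicted genes were left out of the naming rule: the 12 highest-scoring hosts in all 6 lists, the 12 aged-only and the young-only hosts, restricted members of the gene lists, m5C genes, and up to 4 members per list found in all 6. Members and lists were chosen with earlier results of these data known. The steps were tested on simulated peaks, with start peaks planted well inside the window in genes with a RefSeq strand and no overlapping span. All 1440 planted start peaks were found. Peaks at the edges of the window, strands taken from peaks and overlapping spans were not simulated. Some results are not reported here.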

Additional observations from a re-analysis of the deposited data

How the results depend on the processing

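Aged lists had more start peaks and start genes and a higher start share under every alternative run (exact permutation p from 0.1 to 0.5; no such test can fall below 0.1). Pairing young and aged lists by replicate number, a replicate block, left the differences at 546.3 peaks, 0.917 points and 545.3 genes (exact sign-flip permutation p = 0.25, the smallest 3 pairs allow); same-numbered lists did not deviate together (correlations over genes from −0.000806 to 0.0122). The start width excess held in all settings with 6 lists. The start score ratio fell to 1.08 with lists of equal length and to 1.03 both for scores of at least 100 and for scores at or above the list median. The start share minus the end share was 1.35 for scores of at least 100, 1.6 at or above the median, 3.05 in the first 500 bases, −3.25 in the first 2000 and −1.19 where a peak had to cover the first or last base. Aged-only regions and genes numbered 50 and 48 with equal length, 88 and 86 at or above the median, and 71 each where the first base had to be covered. Young-only regions and genes numbered 25 and 27 with equal length and 6 each with the first base covered, where Ndufa5 had 1 more aged than young list (−1). Common regions fell to 245 at or above the median and 157 with the first base covered. The cause of these shifts was not tested.

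Leaving out 1 list, the ranges were 511.5 to 587.3 peaks, 0.574 to 1.15 points, 510.8 to 586 genes, 0.183 to 0.665 points for start minus end, 65.5 to 68.9 bases, a score ratio of 1.17 to 1.21, 175 to 272 aged-only and 11 to 28 young-only regions, 174 to 270 genes in the aged and 11 to 24 in the young lists alone, and 409 to 483 common regions. With 5 lists p cannot fall below 0.0625. Fewer lists are required of a restricted region when 1 is left out; aged-only regions passed 1.5 times their number without aged replicate 3 (272), and young-only regions without young replicates 1, 2 and 3 (28, 23 and 24) and aged replicates 1 and 3 (23 and 17). The same lists moved the gene counts past 1.5 times, to 270 for aged-only and to 24, 21, 21, 20 and 17 for young-only. Peaks touching 1 span on either strand, and genes with a RefSeq strand, were chosen after seeing the data and gave 150 and 122 aged-only regions. Lists of equal length were also applied to the gene lists after seeing the data.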

Other observations

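Genes on the X chromosome had start peaks more often than other genes. Of 323 X-linked genes with a peak, 118 (36.5%) had a start peak, against 1942 of 8762 autosomal genes (22.2%). The X-linked hosts included 11 genes of the Rhox cluster of reproductive homeobox genes and 17 predicted genes. Without Rhox and predicted genes the shares were 90 of 279 (32.3%) and 1871 of 8516 (22%). By peaks, 16.1%, 18.3% and 14.9% of X-linked peaks in the young lists and 14.9%, 15.2% and 14.7% in the aged lists were start peaks, above the autosomal share in 6 of 6 lists, by 6.81 points on average (SD 1.76). Unlike the autosomal share, at 8 to 8.52% in young and 8.9 to 10.1% in aged lists, the X-linked share was no higher in the aged lists. These shares by peak include the Rhox and predicted genes. The comparison was made after the values were seen and was not tested.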
